A study of Mus musculus with 19 samples.

Results

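The genes described here are 9 core genes of apicobasal polarity in mouse tongue epithelium. They are Pard3, Pard6b, Pard6g and Prkci of the Par complex, Crb3 of the Crumbs complex, and Scrib, Dlg1, Llgl1 and Llgl2 of the Scribble module. They were chosen by name as the central members of these 3 complexes, and they are 9 of the 24689 gene symbols measured. All 9 passed the filter on low values, which asked for at least 0.1 transcripts per 1000000 (TPM) in at least 3 mice.

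Epithelial cells set up an apical and a basolateral membrane through protein complexes that exclude each other. The Par and Crumbs complexes mark the apical side and the junctions, while the Scribble module marks the basolateral side, and atypical protein kinase C phosphorylates members of the opposing complex. In stratified epithelia such as the tongue surface, Par proteins are also known for tight junctions of the upper layers and for setting the axis of division of basal cells.

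The study asked how human papillomavirus oncogenes and active YAP act together in oral epithelium. Bulk RNA sequencing was made of tongue epithelia from 19 mice in 4 groups, named N (5 mice), E (5 mice), Y (3 mice) and EY (6 mice). N is the control group, in which 3 mice carry Krt14-CreERT and LSL-rtTA. N mouse 4 carries LSL-rtTA without Cre, and N mouse 5 carries Krt14-CreERT, tetON_E6-E7 and tetON_YAP1S127A without rtTA, so that both lack a part that expression of the effectors needs. E mice carry Krt14-CreERT and LSL-rtTA with tetON_E6-E7, which encodes the E6 and E7 oncoproteins. Y mice carry the same driver alleles with tetON_YAP1S127A, a form of YAP that lacks an inhibitory phosphorylation site, and EY mice carry both effectors. By the study's methods all lines also carry an H2B-GFP reporter, and all groups received 3 doses of tamoxifen in the tongue and doxycycline in the chow. Epithelia were taken 15 days after induction from littermates of 8 to 16 weeks of age. Cre is driven by the Krt14 promoter of basal keratinocytes, and the dissected epithelium was sequenced whole, so that each value mixes cells with and without the transgenes and keratinocytes with other cells.

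The deposited TPM could be turned back into whole reads for 24680 of 24680 genes above 0, to within 0.0001 reads. The smallest whole numbers that fit were taken for each gene, so reads of genes found in few mice may be too low. The recovery gave 8269674 to 11007304 reads per mouse, with medians of 9637779 (N), 8848776 (E), 8679053 (Y) and 9448942 (EY). The 9 polarity genes had means of 290 (Crb3) to 2663 (Prkci) recovered reads per mouse, so none of them was measured near the limit of detection. TPM were scaled between mice by the median of the ratios to the gene means, and values per mouse are given as normalised reads, which within a gene are proportional to the scaled TPM. Over the 22745 genes tested, the median log2 fold change without scaling was 0.33 (EY), 0.13 (Y) and 0.07 (E) against N. With scaling it was 0.01, -0.03 and -0.02, and all changes are given relative to that shift unless said otherwise. Groups were compared with limma on log2(scaled TPM + 0.1), in 1 model of the 4 groups with Benjamini-Hochberg adjustment over all genes tested, and a gene was called changed at an adjusted p below 0.01. A fold change on this scale understates the change of genes with low TPM. Salivary gland markers set N mice 2 and 3 apart, at a summed 121.4 and 247.5 normalised reads per kilobase (kb) of exons against 0 to 10.2 in all other mice, so counts are also given without these 2 mice, a setting chosen after seeing the data.

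In EY epithelia Pard3 and Scrib fell and Crb3 rose against N, so 3 of the 9 genes changed (1 higher, 2 lower), while 27.3% of all genes tested changed, 13.5% higher and 13.8% lower. With unscaled TPM 4 of the 9 changed in EY, 3 higher (Crb3, Prkci and Llgl2) and 1 lower (Pard3), and the median log2 fold change of the 9 was 0.28 in place of -0.09, while 31.9% of all genes changed, 23.9% higher and 7.97% lower. With scaling, the median of the 9 was -0.02 without N mouse 3 and -0.12 without EY mouse 3. Without N mice 2 and 3 the counts were 1 higher and 3 lower, with Pard6g as the added gene, beside 20.8% of all genes. The mice of EY and N did not overlap in 3 genes, Pard3, Scrib and Crb3, as for 23.9% of all genes. In Y epithelia Crb3 rose, so 1 gene changed, against 6.27% of all genes (3.9% higher and 2.37% lower), and without N mice 2 and 3 it was also 1 (Crb3), beside 3.5% of all genes. Y and N mice did not overlap in 3 genes, Pard3, Dlg1 and Crb3, against 19.8% of all genes. In E epithelia limma called 0 of the 9 genes, with 1 at an unadjusted p below 0.05 (Crb3), and limma voom on the recovered reads also called 0. Of all genes, 14.7% were at an unadjusted p below 0.05 in E and voom called 1.47%. By limma 1.46% of all genes changed in E (1.35% higher and 0.11% lower), and the mice of E and N did not overlap in 4.67% of all genes and in 0 of the 9. EY, Y and E were compared with the same 5 N mice, so the 3 comparisons are not independent of each other.

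Between the transgenic groups, limma called 2 of the 9 genes in EY against E (Pard3 and Scrib, both lower in EY), where 22.7% of all genes changed. With unscaled TPM the 2 were Pard3 and Crb3, which was higher in EY, beside 25.3% of all genes. In EY against Y, which asks what E6-E7 adds to active YAP, limma called 0 of the 9 genes, with 4 at an unadjusted p below 0.05, and voom called 1 (Pard3). Of all genes limma called 2.93% there, with 21.2% at an unadjusted p below 0.05, and voom called 3.6%. The interaction EY - E - Y + N, which asks whether both transgenes together differ from the sum of each alone, was called for 0 of the 9 genes by limma and by voom, with 2 (Crb3 and Llgl1) at an unadjusted p below 0.05. Of all genes 0.185% had an interaction by limma and 0.567% by voom, and 14% were at an unadjusted p below 0.05. The estimate of the interaction was below 0 for all 9 genes with and without scaling, beside 48.5% of all genes with and 44.5% without it, and ranged from -0.78 for Crb3 (adjusted p = 0.151) to -0.09 for Pard6g (adjusted p = 0.854). These 9 estimates share all 19 mice. With the additional limit of an absolute log2 fold change above 1, 1 of the 9 genes (Crb3) passed in EY, against 15.4% of all genes. Pard3 fell short of this limit at -0.98. Its value was -1.08 with voom and on log2(normalised reads + 1), a scale chosen after seeing the data.

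**Figure D1:**
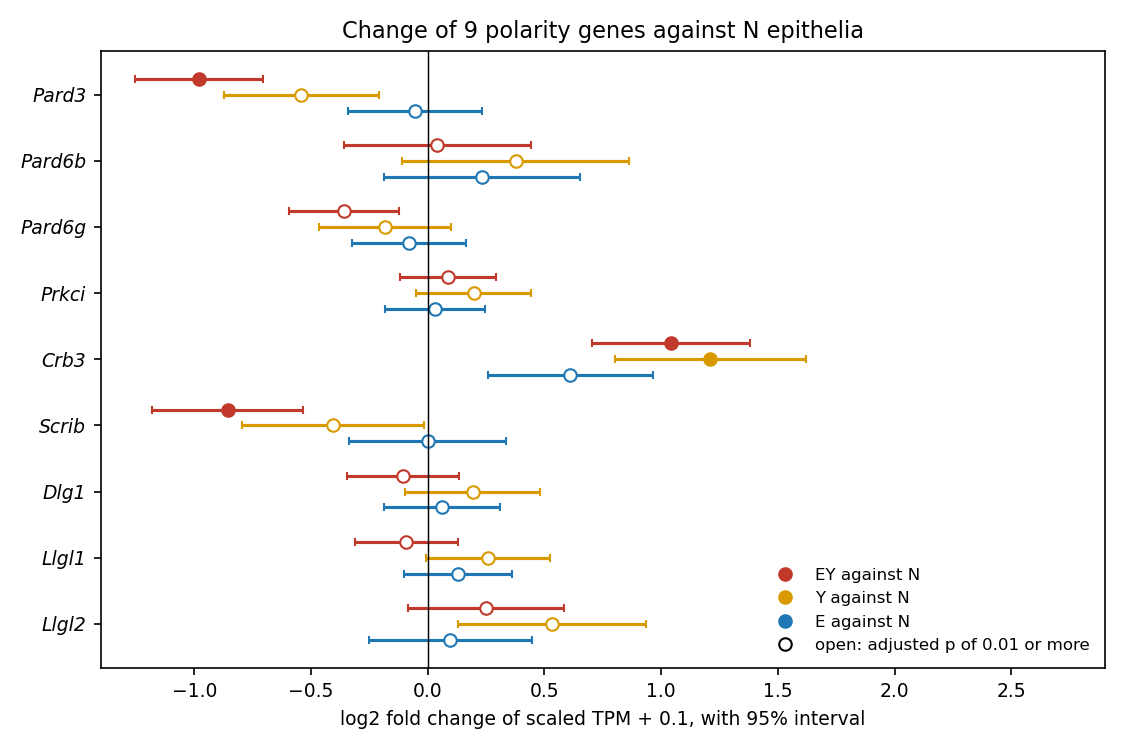
Log2 fold change of scaled TPM + 0.1 of 9 polarity genes in EY, Y and E epithelia against N, with 95% intervals from limma and filled points where the adjusted p was below 0.01. Filled points are Pard3, Scrib and Crb3 in EY and Crb3 in Y, and Crb3 lies to the right of 0 in all 3 comparisons. With unscaled TPM Prkci and Llgl2 also passed in EY, and Scrib did not.

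The tissue label was checked against marker genes of 11 lists. Keratinocyte genes led, with Krt13 at a mean of 194400 and Krt14 at 44350 normalised reads per exonic kilobase (kb), and Cdh1 led the pan-epithelial list at 573. The most abundant genes of other lists were far below Krt13 and Krt14, though Lyz2 was above Cdh1, at 868 for Lyz2 (myeloid), 487 for Cd74 (antigen-presenting cells), 369 for Dcn (fibroblast), 253 for Acta1 (skeletal muscle), 76.1 for Pmel (melanocyte), 16.6 for Dcpp1 (salivary gland, found in N mice alone), 9.61 for Tas1r3 (taste cell) and 4.93 for Pecam1 (endothelial). No marker of any list was at 0 in every mouse.

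Most of the suprabasal markers fell in EY epithelia. The summed level of 10 suprabasal markers, led by Krt13, was 697100, 334200, 553800, 678600 and 653200 reads per exonic kb in N mice 1 to 5, and 491000, 583500, 592400, 318200 and 515800 in E mice 1 to 5. It was 477500, 252200 and 336200 in Y mice 1 to 3, and 153200, 179300 and 215900 (lowest, median and highest) in the EY mice. Every EY mouse lay below every mouse of the other groups. In EY epithelia 7 of the 10 markers fell, beside 13.8% of all genes, with a median log2 fold change of -1.49. With unscaled TPM 6 fell, beside 7.97% of all genes, with a median of -1.11. Among those that fell were Lor (-4.09, adjusted p = 6.11e-07) and Tgm3 (-3.13, adjusted p = 5.17e-06), both needed for the cornified envelope. The 3 suprabasal markers not called in EY with scaling were Krt6a, Krt16 and Cnfn. Of the 8 basal markers 1 rose (Krt14, 1.06, adjusted p = 0.00621) and 2 fell in EY (Krt15, -1.65, and Col17a1, -1.11), with a median of -0.35. Of all genes 13.5% rose and 13.8% fell. With unscaled TPM 3 basal markers rose and 2 fell, with a median of 0.03, beside 23.9% and 7.97% of all genes. The call of Krt14 was lost in 8 of 19 fits without 1 mouse (N mouse 2, 3, 4 or 5 or EY mouse 1, 2, 4 or 6), with values of 0.93 to 1.06, and in 4 of 13 other settings, with adjusted p of 0.00032 to 0.0546 over all of them. The basal sum ranged between 42560 and 67910 among N mice, 39540 and 67650 among E mice, 72540 and 129800 among Y mice, and 60140 and 115800 among EY mice. Of the 8 genes listed as pan-epithelial 3 rose in EY (Epcam, 1.48, Cdh1, 0.78, and Krt18, 4.46) and 3 fell (Esrp1, -0.39, Ovol1, -1.10, and Esrp2), beside 13.5% and 13.8% of all genes. Esrp2 stood at the threshold (-0.39, adjusted p = 0.00975) and lost its call in 14 of 19 fits without 1 mouse, with values of -0.43 to -0.34. With unscaled TPM Esrp1 and Esrp2 were at -0.02 in EY and neither was called. Of the 26 markers of these 3 lists limma called 0 in Y epithelia, with 11 at an unadjusted p below 0.05 and 3 called by voom, and 0 in E epithelia, with 1 at an unadjusted p below 0.05 and 1 called by voom. In Y 27.2% of all genes were at an unadjusted p below 0.05 and voom called 7.21%. In bulk tissue, fewer cells of a layer cannot be told apart from less RNA per cell, and the part of the suprabasal layers in the changes of polarity genes was not tested.

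Of markers of other cells, 3 of 10 myeloid genes rose in EY (S100a8, 4.38, S100a9, 4.43, and Ly6g, which was listed at 0 in all N, E and Y mice and had a mean of 5.46 normalised reads in EY) and 2 in Y (S100a8, 5.24, and S100a9, 5.70). Of all genes 13.5% rose in EY and 3.9% in Y. The call of S100a9 in Y was lost without Y mouse 2 (5.49, adjusted p = 0.0108), without N mice 2 and 3 (5.46, adjusted p = 0.0119) and with 3 N mice of the first genotype (5.15, adjusted p = 0.0138), in a range of 0.000193 to 0.0138. Stressed keratinocytes are known to express S100a8 and S100a9 as well. Most other myeloid markers had values below 0 in Y, from -0.24 (Cd68 and Csf3r) to -1.12 (Adgre1) and -2.94 (Lyz2, adjusted p = 0.0594), none of them called, and the median of the list was -0.24 in Y and 0.61 in EY. The median in EY was 1.07 without N mouse 1, 0.35 without N mouse 5 and 0.15 with 3 N mice of the first genotype. The myeloid sum had medians of 762 (N), 1407 (E), 4200 (Y) and 3084 (EY), with N mouse 1 (4747) and E mouse 5 (3143) above the rest of their groups. Between N and Y epithelia, mean normalised reads went from 31.1 to 844 for S100a8 and from 36.0 to 1241 for S100a9, but from 1749 to 162 for Lyz2, so the higher sum in Y came from S100a8 and S100a9. Of the other lists, 1 of 8 fibroblast genes fell in EY (Dcn, -2.73), as did 1 of 8 T and Langerhans cell genes (Cd207, -2.23) and 1 of 6 melanocyte and Schwann cell genes (Dct, -1.19, or -0.82 and not called without N mice 2 and 3). In EY 13.8% of all genes fell. The other members of the first 2 lists were not called, at -0.13 (Thy1) to 0.81 (Pdgfra) and at -0.28 (Trdc) to 1.52 (Trac), and the medians of these lists in EY were 0.02 and 0.68. The fibroblast median depended on the N mice used, at 0.58 without N mouse 1, -0.35 without N mouse 4 and -0.74 with 3 N mice of the first genotype. Dcn, the most abundant fibroblast marker, went from a mean of 4273 normalised reads in N to 741 in EY epithelia. Of the 9 skeletal muscle, 5 endothelial, 4 taste cell and 1 salivary gland genes tested, limma and voom called 0 in EY, with 3 at an unadjusted p below 0.05, beside 45.7% of all genes. The median of the muscle list was 1.41 in EY, or 0.91 without EY mouse 3 and 1.92 without N mouse 2. Without EY mouse 4, 1 muscle gene was called higher. Muscle sums were 96.2 to 1625 in N and 233.6 to 6759 in EY epithelia, with EY mouse 3 highest, and fibroblast sums were 770.4 to 2226 in N, 180.9 to 427.5 among Y mice and 173 to 987 among EY mice. Mitochondrial genes took 2.24% to 3.1% of the reads of N mice, 1.44% to 2.33% of those of E mice, 1.72% to 3.04% for Y mice and 1.81% to 3.57% for EY mice. The part of these cells and of RNA quality in the results below was not tested.

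**Figure D2:**
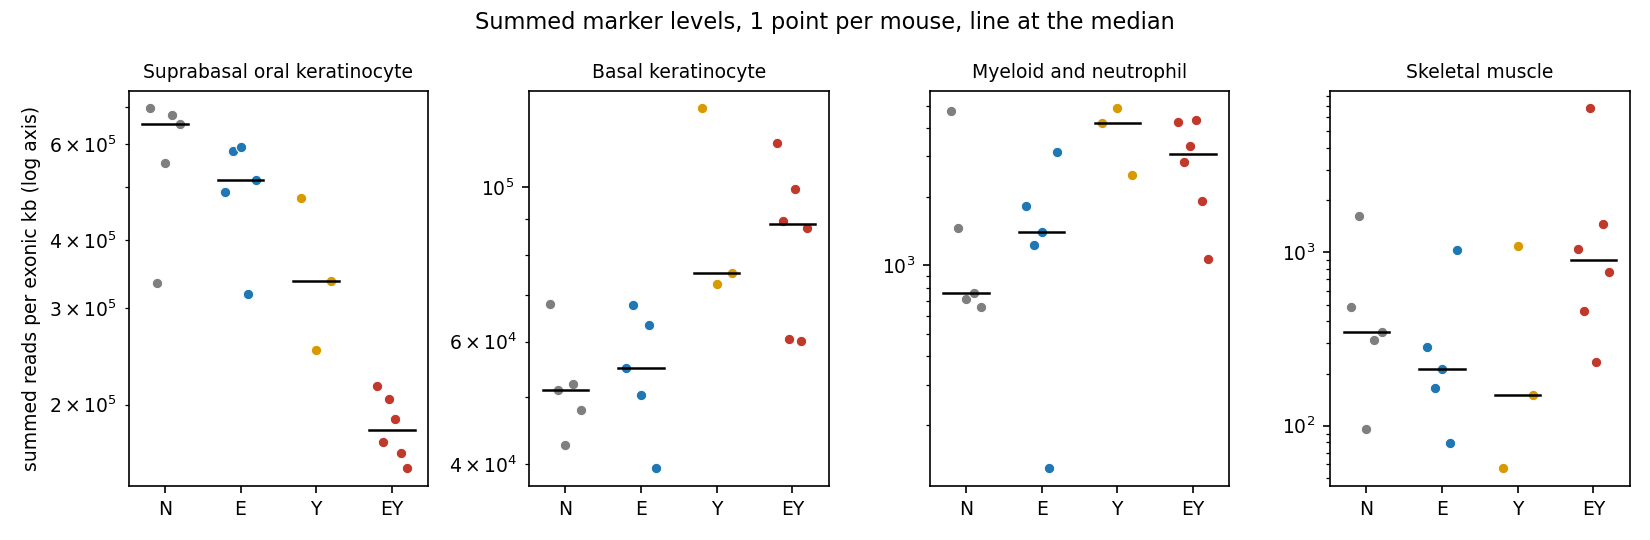
Summed level of suprabasal, basal, myeloid and skeletal muscle markers in normalised reads per exonic kb (log axis), with 1 point per mouse and a line at the median of each group. The suprabasal sums of the 6 EY mice, 153200 to 215900, lie below those of all other mice.

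Levels of different genes can be compared only per length, and the deposited TPM divide by the length of the whole gene. This was checked for 13317 genes with a length in the annotation and a mean above 20 recovered reads. Of these, 13219 (99.3%) had a TPM per read that matched their span on the genome, introns included, within 0.05 in log2. For 399 (3.0%) it matched their exons. Pard3 spans 548394 bases with 14506 exonic bases, and Dlg1 spans 211687 with 10736, while Crb3 spans 6814 with 1564. Pard3 and Dlg1 stood lowest in TPM, at 1.45 and 3.05 scaled TPM in N epithelia, and levels below are given per exonic kb.

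In N epithelia Prkci was the most abundant of the 9 genes, at 454 ± 42.2 normalised reads per exonic kb (SD, n = 5), followed by Pard6g at 371 ± 54.2 and Scrib at 181 ± 24.6. Llgl2 (140 ± 28.4), Crb3 (109.6 ± 24.05), Dlg1 (97.2 ± 5.45), Pard6b (94.2 ± 27.4), Pard3 (88.7 ± 3.02) and Llgl1 (84.3 ± 10.1) followed. Of neighbours in this order, the intervals of mean ± SD were apart between Pard6g and Scrib and overlapped for every other pair. Counted per kb of the longest transcript, Pard3 would take the third place, at 221, so its place in the order depends on the length used. All 9 genes lay between the 77.8 (Llgl1) and the 95.9 percentile (Prkci) of the genes tested.

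**Figure D3:**
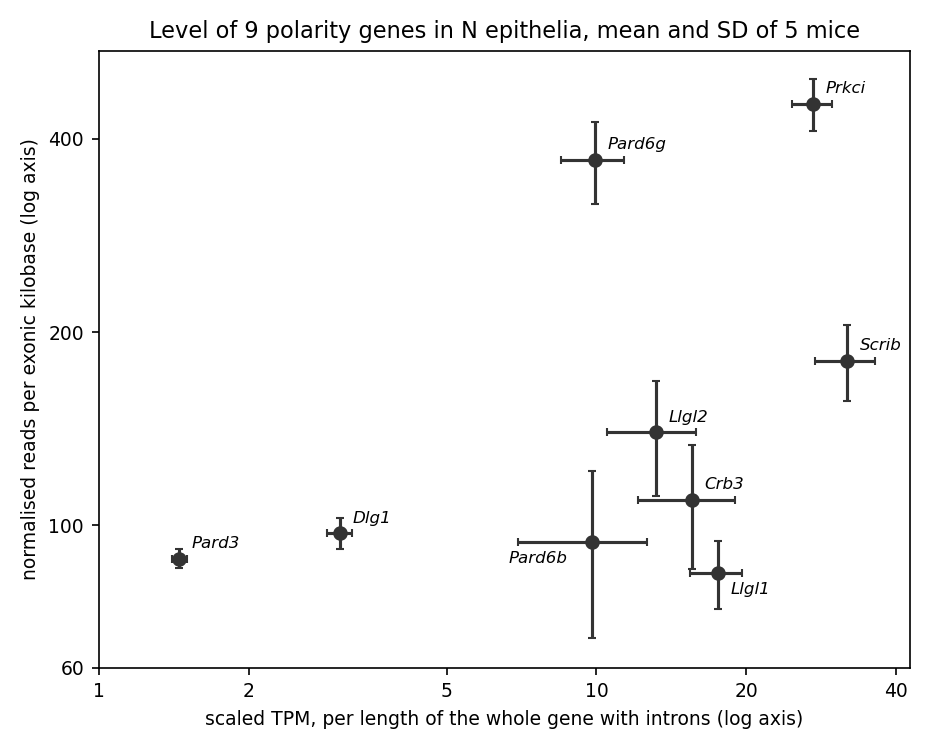
Level of the 9 polarity genes in N epithelia in scaled TPM, which divide by the whole gene with its introns, against normalised reads per exonic kb (both log axes), as mean and SD of 5 mice. Pard3 and Dlg1 are lowest in TPM (1.45 and 3.05) and lie at 88.7 and 97.2 reads per exonic kb, within the spread of Pard6b (94.2 ± 27.4).

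Pard3 encodes the scaffold that brings the Par complex to cell junctions. It was at 1256, 1287, 1354, 1298 and 1241 normalised reads in N mice 1 to 5, at 1186, 1251, 1286, 1253 and 1204 in E mice 1 to 5, at 1051, 708 and 843 in Y mice 1 to 3, and at 549.8, 609.5 and 663 (lowest, median and highest) in the EY mice. All EY mice lay below all Y mice, and all Y mice lay below all N and E mice, which overlapped with each other. Means ± SD were 1287 ± 43.9 (N), 1236 ± 40.5 (E), 867 ± 173 (Y) and 609 ± 41.4 (EY), so the mean in EY was 0.473 times that in N. Pard3 fell by 0.98 on the log2 scale in EY against N (SE 0.13, 95% interval -1.25 to -0.71, adjusted p = 1.23e-05) and by 0.93 against E (adjusted p = 3.16e-05), lower in 6 of 6 EY mice in both.

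In Y epithelia, the log2 fold change of Pard3 against N was -0.54 (95% interval -0.87 to -0.21, adjusted p = 0.030, lower in 3 of 3 mice), which did not pass the threshold. For EY against Y it was -0.44 (95% interval -0.76 to -0.12, adjusted p = 0.0927). Both calls depended on the scale. The 0.1 TPM added before the log stand for 88.6 reads of Pard3 and for 1.1 reads of Crb3. On log2(normalised reads + 1), a scale chosen after seeing the data, Pard3 changed in Y by -0.59 (adjusted p = 0.000531), in EY against Y by -0.49 (adjusted p = 0.00321) and in EY against N by -1.08 (adjusted p = 3.57e-09). With voom the first 2 had adjusted p = 0.00081 and adjusted p = 0.00703. Over all alternatives, the adjusted p ranged from 0.000531 to 0.233 for Y against N and from 0.00321 to 0.377 for EY against Y. Without Y mouse 1, which had the highest Pard3 and the highest suprabasal sum of the 3 Y mice, the value of Pard3 was -0.68 for Y against N (adjusted p = 0.0191) and -0.31 for EY against Y (adjusted p = 0.377). Without Y mouse 2, which had the lowest Pard3 of the 3, these were -0.42 (adjusted p = 0.148) and -0.56 (adjusted p = 0.0657). With 1 TPM added in place of 0.1, the value in EY shrank to -0.54. Without scaling the values of Pard3 were -0.64 in EY (adjusted p = 0.00181), -0.36 in Y (adjusted p = 0.197) and -0.28 in EY against Y (adjusted p = 0.331).

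Because Pard3 and Crb3 moved in opposite directions, the 250 bases before their annotated starts are printed as an illustration, from RefSeq promoter tables of build GRCm38.p6, which is not the build the reads were aligned to. Of the 9 genes 6 had an entry, with 11 starts in all. Motifs were searched on both strands, as GGAATG or CATTCC for the core of TEAD factors, the DNA-binding partners of YAP, TGANTCA for AP-1 and GCGGGAA or TTCCCGC for the core of E2F factors. No letters of one motif overlapped another in the windows printed. Of 32851 promoter windows of this length, 12.6% held the TEAD core, 6.7% the AP-1 motif and 3.8% the E2F core. Both Pard3 windows, at chr8:127063806-127064055 and chr8:127299362-127299611 on the plus strand, held none of the 3 motifs, which says only that these letters are not in these windows.
Pard3, upstream start: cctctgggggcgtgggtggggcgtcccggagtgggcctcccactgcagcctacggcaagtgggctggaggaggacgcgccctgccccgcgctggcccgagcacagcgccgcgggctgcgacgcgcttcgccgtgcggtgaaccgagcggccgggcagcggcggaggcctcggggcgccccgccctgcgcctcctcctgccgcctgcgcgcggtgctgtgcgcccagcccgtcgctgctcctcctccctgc
Pard3, downstream start: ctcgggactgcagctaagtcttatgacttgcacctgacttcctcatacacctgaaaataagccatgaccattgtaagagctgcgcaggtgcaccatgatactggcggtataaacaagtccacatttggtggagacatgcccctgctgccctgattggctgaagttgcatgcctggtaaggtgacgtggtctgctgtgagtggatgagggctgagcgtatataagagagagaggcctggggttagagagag

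**Figure D4:**
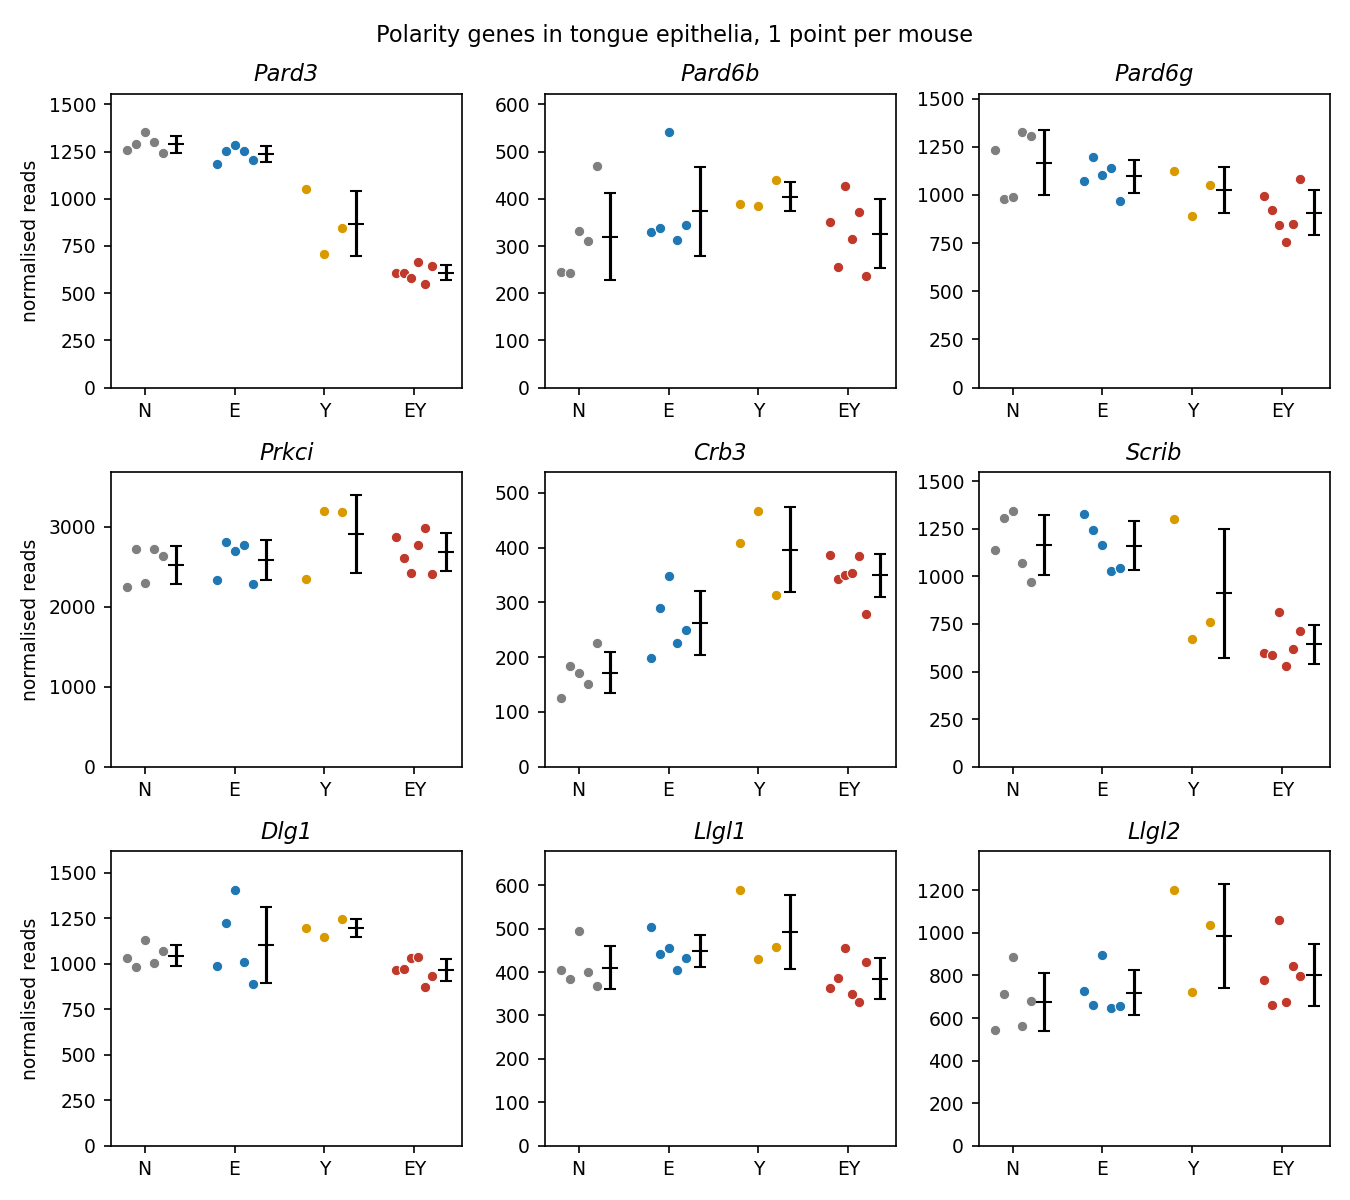
Normalised reads of the 9 polarity genes in N, E, Y and EY epithelia, with 1 point per mouse and the mean with its SD beside each group. For Pard3 the EY mice (549.8 to 663) lie below all others, and for Crb3 the EY and Y mice (278 to 467) lie above all N mice (125 to 225).

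Pard6b and Pard6g encode adaptors that tie atypical protein kinase C to Cdc42 within the Par complex. Pard6b ranged between 242 and 471 normalised reads among N mice, 314 and 542 among E mice, 384 and 441 among Y mice, and 236 and 428 among EY mice. The 4 groups overlapped, and the SD within N was 93.1 for a mean of 320.2. The log2 fold changes of Pard6b against N were 0.04 (EY), 0.38 (Y) and 0.23 (E), with adjusted p of 0.892, 0.316 and 0.657. Without scaling the value of Pard6b in EY was 0.41 (adjusted p = 0.0743, in a range of 0.0743 to 0.996 over all alternatives). The value in EY turned to -0.044 without N mouse 1, to -0.048 without N mouse 2, to -0.045 without N mice 2 and 3, to -0.042 without EY mouse 3 and to -0.0017 without EY mouse 5.

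Pard6g ranged between 979 and 1327 among N mice, 970.0 and 1197 among E mice, 892 and 1126 among Y mice, and 754 and 1081 among EY mice, with 4 of 6 EY mice below all N mice. Its group means were 1167.7 ± 170.4 (N), 1097 ± 84.7 (E), 1023 ± 119 (Y) and 907 ± 117 (EY). The log2 fold change of Pard6g in EY was -0.36 (95% interval -0.59 to -0.12, adjusted p = 0.017), which did not pass the threshold. It passed on the scale of reads (adjusted p = 0.00941), without N mouse 2 (-0.42, adjusted p = 0.00905) without EY mouse 6 (-0.41, adjusted p = 0.00801) and without N mice 2 and 3 (-0.51, adjusted p = 0.00312), and with unscaled TPM the value was 0.015 (adjusted p = 0.933, in a range of 0.00312 to 0.933 over all alternatives). In Y and E epithelia the values were -0.18 and -0.08.

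Prkci encodes atypical protein kinase C iota, the kinase of the Par complex. It ranged between 2239 and 2719 normalised reads among N mice, 2280.4 and 2812 among E mice, 2349 and 3196 among Y mice, and 2410.0 and 2984 among EY mice. All 4 groups overlapped, with Y mouse 1 (2349) well below the other Y mice. The log2 fold change of Prkci was 0.09 in EY (95% interval -0.12 to 0.29, adjusted p = 0.523), 0.20 in Y and 0.03 in E epithelia. Without scaling, where the median gene moved by 0.33, its value in EY was 0.46 (adjusted p = 0.0022, in a range of 0.0022 to 0.764 over all alternatives).

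Crb3 encodes a small transmembrane protein of the apical membrane that recruits the Crumbs complex, and it rose in EY and Y epithelia. It was at 125, 184, 172, 151 and 225 normalised reads in N mice 1 to 5, at 199, 290.0, 348, 225 and 249.95 in E mice 1 to 5, at 407, 467 and 313 in Y mice 1 to 3, and at 278, 352 and 387 (lowest, median and highest) in the EY mice. All Y and EY mice lay above all N mice, and 4 of 5 E mice did, E mouse 4 only just. Means ± SD were 171 ± 37.6 (N), 262 ± 58.3 (E), 396 ± 77.7 (Y) and 349 ± 39.4 (EY). E overlapped with N, EY and Y, and EY overlapped with Y.

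Crb3 rose by 1.04 on the log2 scale in EY (SE 0.16, 95% interval 0.70 to 1.38, adjusted p = 5.73e-05, higher in 6 of 6 mice) and by 1.21 in Y epithelia (SE 0.19, 95% interval 0.80 to 1.62, adjusted p = 0.000543, higher in 3 of 3 mice), which are ratios of mean reads of 2.04 and 2.31. In E epithelia the log2 fold change of Crb3 was 0.61 (95% interval 0.26 to 0.96, adjusted p = 0.0597), which did not pass the threshold. EY differed from Y by -0.17 (95% interval -0.56 to 0.23, adjusted p = 0.658) and from E by 0.43 (adjusted p = 0.0478). The call in Y was lost when only the Y and N mice were fitted (1.21, adjusted p = 0.0156, in a range of 0.000102 to 0.0156 over all alternatives). Without scaling, EY differed from E by 0.69 (adjusted p = 0.00217, in a range of 0.00217 to 0.137). Crb3 shares 14 exonic bases with Dennd1c on the opposite strand, which had a mean of 50.8 reads, and whether reads were counted by strand is not given in the sources used here.

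Of the Crb3 starts, the window at chr17:57061951-57062200 on the plus strand held CATTCC, the TEAD core read on the other strand, in capitals below, with its first base at -243 from the start. The window of a second start, at chr17:57061981-57062230, held none of the 3 motifs. A match describes the letters and is no sign that a factor binds there. Among the other genes Prkci had a TEAD core at -44 and 1 of the 4 Dlg1 starts an E2F core at -79.
Crb3, upstream start: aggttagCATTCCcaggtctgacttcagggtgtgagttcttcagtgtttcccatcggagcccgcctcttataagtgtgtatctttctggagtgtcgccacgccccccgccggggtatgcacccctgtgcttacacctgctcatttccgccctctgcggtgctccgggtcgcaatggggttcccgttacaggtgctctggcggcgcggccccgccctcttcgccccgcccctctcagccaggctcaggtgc

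Scrib encodes the large scaffold after which the basolateral module is named. It was at 1138, 1308, 1344, 1068 and 969 normalised reads in N mice 1 to 5, at 1327, 1246, 1165.5, 1028 and 1043 in E mice 1 to 5, at 1299, 671 and 762 in Y mice 1 to 3, and at 531, 608 and 813 (lowest, median and highest) in the EY mice. All EY mice lay below all N and E mice, while Y mice 2 and 3 lay among the EY mice and Y mouse 1 among the N mice. Means ± SD were 1165 ± 159 (N), 1162 ± 129 (E), 911 ± 339.5 (Y) and 643 ± 102.5 (EY), a ratio of 0.552 for EY to N.

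Scrib fell by 0.86 on the log2 scale in EY against N (SE 0.15, 95% interval -1.18 to -0.53, adjusted p = 0.000248) and by 0.86 against E (adjusted p = 0.000322), lower in 6 of 6 EY mice in both. Without scaling both calls were lost, at -0.48 (adjusted p = 0.0341, in a range of 2.16e-05 to 0.0341) and -0.59 (adjusted p = 0.0127, in a range of 3.09e-05 to 0.0127). In Y epithelia the log2 fold change of Scrib was -0.41 (95% interval -0.79 to -0.02, adjusted p = 0.165), and for EY against Y it was -0.45 (adjusted p = 0.149). Without Y mouse 1 the value of Scrib was -0.69 for Y against N (adjusted p = 0.0121) and -0.17 for EY against Y (adjusted p = 0.645). Without Y mouse 2 these were -0.22 (adjusted p = 0.545) and -0.64 (adjusted p = 0.0643), so both rest on which Y mice are used. Over all alternatives the adjusted p ranged from 0.0121 to 0.568 and from 0.0643 to 0.645. Y mouse 1 also had the highest Llgl1 (589) and Llgl2 (1202) of all 19 mice, the fewest reads (8269674) and the largest basal sum (129800).

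Dlg1 encodes a membrane-associated guanylate kinase that works with Scrib. It ranged between 982 and 1132 normalised reads among N mice, 889 and 1407 among E mice, 1145 and 1248 among Y mice, and 874 and 1036 among EY mice. The Y mice lay just above all N and all EY mice, while E mice overlapped with all other groups. The log2 fold changes of Dlg1 against N were -0.11 (EY), 0.19 (Y) and 0.06 (E), and EY differed from Y by -0.30 (95% interval -0.58 to -0.02, adjusted p = 0.203). None of them passed the threshold. Without scaling the value in EY was 0.26 (adjusted p = 0.121).

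Llgl1 and Llgl2 encode the Lgl proteins, which atypical protein kinase C phosphorylates and keeps off the apical membrane. Llgl1 ranged between 367 and 494 normalised reads among N mice, 405 and 505 among E mice, 430.2 and 589 among Y mice, and 330.1 and 456 among EY mice, and the groups overlapped. Its log2 fold change was -0.09 in EY (95% interval -0.31 to 0.13, adjusted p = 0.534), 0.26 in Y and 0.13 in E epithelia, and without scaling the value in EY was 0.28 (adjusted p = 0.077). Without 1 mouse the value in EY ranged from -0.142 to -0.023. Llgl1 shares 64 exonic bases with Flii on the opposite strand, which had a mean of 697 reads.

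Llgl2 ranged between 545 and 886 among N mice, 645 and 898 among E mice, 720.5 and 1202 among Y mice, and 660.1 and 1063 among EY mice, with 2 of 3 Y mice and 1 of 6 EY mice above all N mice. Its log2 fold change was 0.53 in Y (95% interval 0.13 to 0.93, adjusted p = 0.0772), 0.25 in EY (adjusted p = 0.239) and 0.10 in E epithelia. Without scaling the value in EY was 0.62 and passed (adjusted p = 0.00975, in a range of 0.00975 to 0.531).

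The balance of paralogs was measured as the log2 ratio of reads per exonic kb within each mouse, which no scaling can move. Pard6b was at 0.248 (N), 0.31 (E), 0.367 (Y) and 0.328 (EY) times the level of Pard6g, as ratios of geometric means. Llgl2 was at 1.64 times Llgl1 (N), 1.60 (E), 1.98 (Y) and 2.08 (EY). Prkci stood far above Prkcz, its zeta paralog, at 22.6 (N), 19.6 (E), 15.9 (Y) and 20.5 (EY) times its level. Each of EY, Y and E was compared with N for the 3 pairs, 9 tests in all, and 0 of 9 passed an adjusted p of 0.05 in two-sided exact permutation tests, with 1 at an unadjusted p below 0.05. That was Llgl2 to Llgl1 in EY, a difference of 0.34 in log2 (exact p = 0.039, adjusted p = 0.214). For Pard6b to Pard6g the differences were 0.40 in EY (exact p = 0.139), 0.57 in Y (exact p = 0.0536) and 0.32 in E epithelia (exact p = 0.198). Without 1 mouse the difference in E ranged from 0.18 to 0.42. The smallest p these tests can give is 0.00216 for EY, 0.0179 for Y and 0.00794 for E.

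Across the 19 mice, which share group differences, Pearson's r of log2 levels was 0.897 for Pard3 with Scrib, -0.697 for Pard3 with Crb3 and -0.602 for Scrib with Crb3. After the group means were taken out, the values were 0.553, -0.092 and -0.127. Within groups the closest pairs were Scrib with Llgl1 (0.842) and Scrib with Llgl2 (0.705), and Prkci with Llgl1 stood at -0.791. These values are descriptions of 19 mice, and no test was made of them. Of all genes with a mean of at least 1 scaled TPM, those with the pattern closest to Pard3 over the 19 mice were Myo5b (r = 0.971), Zfp706 (0.966) and Plekha5 (0.966). Closest to Scrib were Dalrd3 (0.974), Acap3 (0.969) and Otop3 (0.962), and closest to Crb3 were Krt90 (0.926), Nppb (0.918) and Gch1 (0.902).

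The wider polarity machinery was described with 6 further lists of 69 genes, of which 66 were in the table and 59 passed the filter. In EY epithelia 9 of the 59 rose and 16 fell against N, which is 42.4% beside 27.3% of all genes, with a median log2 fold change of -0.13. The direction of this count depended on the scaling, which moves all genes of a mouse alike. With unscaled TPM 17 rose and 8 fell and the median was 0.24, beside 23.9% of all genes higher and 7.97% lower. Without N mice 2 and 3 the counts were 6 and 13, beside 10.2% of all genes higher and 10.6% lower. In Y epithelia 2 of the 59 rose (Gpsm2, 0.64, and Dlgap5, 1.48) and 1 fell (Dlg2, -1.02, lost after quantile normalization and with only the groups compared), which is 5.1% beside 6.27% of all genes. In E epithelia 2 rose (Gpsm2, 0.80, and Dlgap5, 1.61), which is 3.4% beside 1.46% of all genes. In EY against Y and for an interaction, 1 of the 59 genes was called on the scale of TPM (Gpsm1, lower in EY). This is 1.7%, beside 2.93% of all genes in EY against Y and 0.185% for the interaction. On log2(normalised reads + 1) 1 of 60 rose and 6 fell in EY against Y, where 6.07% of all genes changed, among them Dlg2 (-1.62, adjusted p = 0.000221) and Dlg3 (-0.67, adjusted p = 0.00372), and the single call of an interaction was again Gpsm1.

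Among 11 Par complex partners tested, 2 rose in EY (Rac1, a GTPase, 0.47, and the junction molecule F11r, 0.48) and 1 fell (Tiam1, an exchange factor of Rac1, -0.83). For all 6 lists the shares of all genes in EY are 13.5% higher and 13.8% lower, or 23.9% and 7.97% with unscaled TPM. Among 9 Crumbs partners, 2 rose (the membrane linker Ezr, 0.49, and Epb41l5, 0.82) and 1 fell (Lin7b, -2.14, SE 0.31, adjusted p = 3.21e-05). The median log2 fold changes of these lists in EY were 0.20 (0.105 without N mouse 3 and 0.323 without N mouse 2) and 0.36. With unscaled TPM they were 0.54 and 0.72, where 4 Par partners rose and Tiam1 lost its call (-0.47, adjusted p = 0.012), and 6 Crumbs partners rose and 1 fell. The call of F11r was lost without N mouse 2 (0.46, adjusted p = 0.0102) or 3 (0.45, adjusted p = 0.0113), without both (0.40, adjusted p = 0.0415) and with only the groups compared (adjusted p = 0.0153), in a range of 9.72e-06 to 0.0415. That of Ezr was lost without N mouse 4 (0.45, adjusted p = 0.0106), with 3 N mice of the first genotype (0.48, adjusted p = 0.0181), without N mice 2 and 3 (0.46, adjusted p = 0.0258) and with mouse number as a block (0.44, adjusted p = 0.0139), in a range of 6.27e-05 to 0.0258. Crb1 and Crb2, the larger relatives of Crb3, stayed below the filter with means of 2.95 and 0.632 reads per mouse, so that Crb3 was the single Crumbs paralog tested.

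Among 9 partners of the Scribble module 2 fell in EY, beside 13.8% of all genes. Both are paralogs of Dlg1, namely Dlg2 (-1.36, adjusted p = 8.33e-07) and Dlg3 (-0.99, adjusted p = 8.66e-06). Dlg2 spans so many bases that 0.1 TPM stand for 319 reads, and its value in EY was -3.71 on log2(normalised reads + 1) and -0.24 with 1 TPM added. The median of this list was -0.35, and 0.02 with unscaled TPM, where 1 rose and 2 fell. Among 9 genes of the Par-1 kinases, which act on the basolateral side, and of the Par-4 kinase with its partners, 1 rose (Mark3, 0.34) and 3 fell (Mark1, -1.50, Mark2, -0.73, and Mark4, -0.67), beside 13.5% and 13.8% of all genes. Without N mice 2 and 3, Mark3 (0.32, adjusted p = 0.0129) and Mark4 (-0.59, adjusted p = 0.0244) lost their calls, in ranges of 2.78e-06 to 0.0129 and 0.000698 to 0.199. With 1 TPM added the value of Mark1 was -0.57. The median of this list was -0.14, and 0.24 with unscaled TPM, where 1 rose and 1 fell.

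Among 12 planar polarity genes, which orient cells within the plane of the tissue, 1 rose in EY (Vangl1, 0.56) and 6 fell, beside 13.5% and 13.8% of all genes. The median was -0.50, or -0.17 with unscaled TPM, where 1 rose and 2 fell. The genes that fell were Prickle2 (-1.52, adjusted p = 1.44e-05), Fzd3 (-1.32, adjusted p = 0.00438), Vangl2 (-1.26, adjusted p = 3.32e-06), Dvl3 (-0.83), Fzd6 (-0.63) and Dvl2 (-0.46). With unscaled TPM Dvl3 (-0.45, adjusted p = 0.0599), Fzd6 (-0.25, adjusted p = 0.128) and Dvl2 (-0.085, adjusted p = 0.608) lost their calls. With 1 TPM added the value of Prickle2 was -0.46. Vangl1 lost its call with only the groups compared, Dvl3 without N mice 2 and 3 (-0.64, adjusted p = 0.0153, in a range of 0.000187 to 0.0599), and Vangl1 and Fzd6 with 3 N mice of the first genotype. Fzd3 is a Frizzled receptor, and its call was the least stable of these. It was lost with unscaled TPM (-0.97, adjusted p = 0.0323), with only 3 N mice of the first genotype (-1.29, adjusted p = 0.0259), without N mice 2 and 3 (-1.14, adjusted p = 0.0449), and without N mouse 2 (-1.24), 3 (-1.26) or 4 (-1.26) or EY mouse 2 (-1.15) or 6 (-1.27), in a range of adjusted p from 0.000479 to 0.0449 over all alternatives.

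Among 9 genes listed under spindle orientation, which links the axis of division to polarity, 3 rose in EY (Dlgap5, 2.16, Gpsm2, 0.87, and Gnai2, 0.68) and 3 fell (Gpsm1, -1.80, Numbl, -1.12, and Numb, -0.77). Of all genes 13.5% rose and 13.8% fell. Whether the rise of Dlgap5 in EY, Y and E has to do with polarity was not tested. The median of the list was -0.02, and 0.35 with unscaled TPM, where 4 rose and 2 fell. Its sign depended on single mice, at 0.055 without N mouse 2 and -0.109 without N mouse 4. Gpsm1 and Gpsm2 encode related proteins that bind inhibitory G protein subunits at the cell cortex. Gpsm1 was at 766, 626, 702, 731 and 1034 normalised reads in N mice 1 to 5, at 1228, 912, 1436, 1081 and 1130.0 in E mice 1 to 5, at 713, 670.0 and 606 in Y mice 1 to 3, and between 137 and 308 in the EY mice. The EY mice lay below all others, while N and Y mice lay close together. Gpsm1 fell by 1.80 in EY against N (adjusted p = 7.89e-07) and by 1.60 against Y (adjusted p = 0.00037), and its log2 fold change was -0.20 in Y (adjusted p = 0.622) and 0.59 in E (adjusted p = 0.133). The interaction of Gpsm1 was -2.19 (adjusted p = 0.00104). The call against Y was lost when only the EY and Y mice were fitted (-1.60, adjusted p = 0.0147, in a range of 3.66e-05 to 0.0147).

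**Figure D5:**
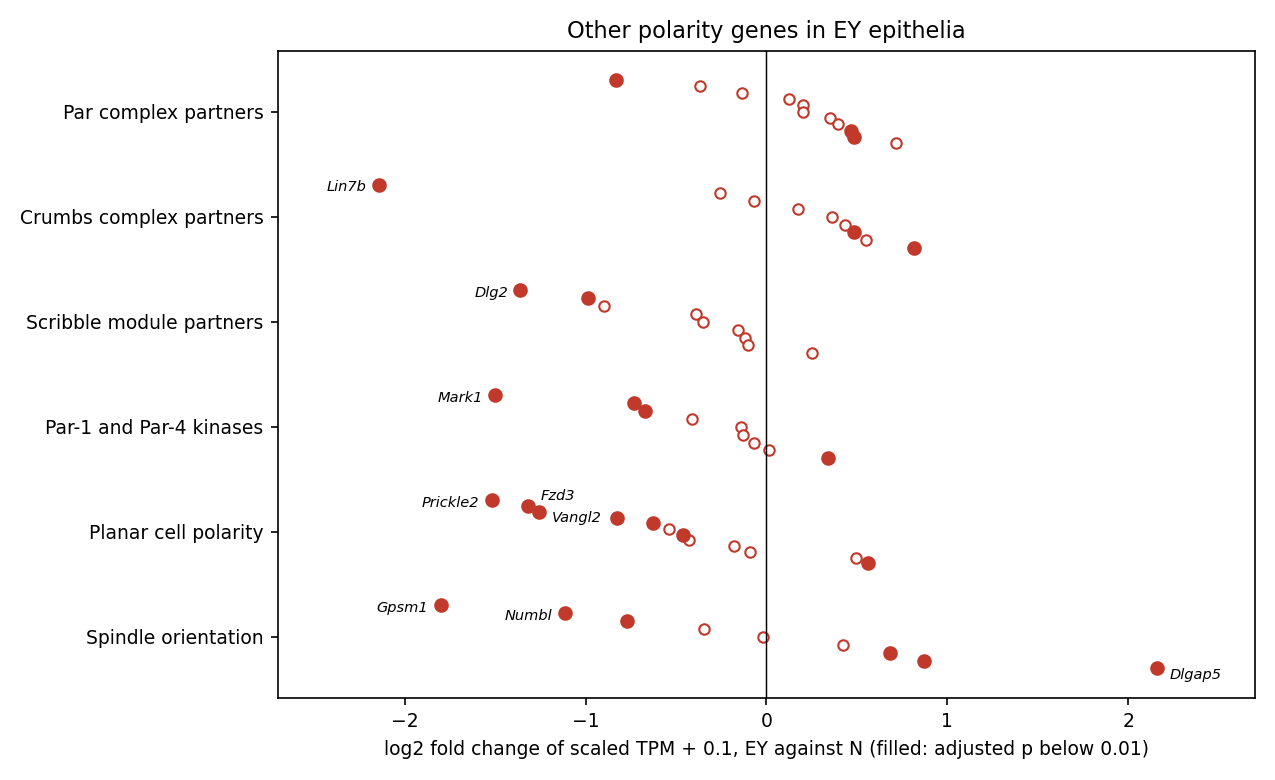
Log2 fold change of scaled TPM + 0.1 in EY against N epithelia of 59 genes of 6 further polarity lists, with 1 point per gene, filled where the adjusted p was below 0.01 and named where the absolute change was also above 1. In all, 9 filled points lie to the right of 0 and 16 to the left, and with unscaled TPM the counts were 17 and 8.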

How the data were processed

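Tongue epithelia of 19 mice were sequenced after poly-A selection. Per the study's methods and the submitters' processing notes, the authors aligned reads to GRCm39 with STAR 2.7.9, sorted them with SAMtools 1.7, counted them per gene with HTSeq 0.13.5 and tested them with DESeq2 1.34.0. The deposited values are TPM, which sum to 1000000 in each mouse, and strandedness of counting is not given in the sources used here. Groups came from titles and genotypes. TPM were scaled by the median of ratios over 15189 genes, filtered at 0.1 TPM in at least 3 mice and tested as log2(scaled TPM + 0.1) with limma 3.58.1 (eBayes with a trend, Benjamini-Hochberg adjustment over 22745 genes) in R 4.3.3, after the scripts were tested on simulated data. All adjusted p of gene changes are from limma. Exonic lengths came from GENCODE M21. Paralog ratios were compared with two-sided exact permutation tests. The rest was done in Python 3.11.15 with pandas 2.3.3 and numpy 2.4.6, and figures were drawn with matplotlib 3.10.9.

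The 9 genes and all lists were chosen with earlier results of these data known. Named genes were the 9, the changed genes of the polarity lists, the 3 genes with the highest r to each changed core gene, and markers of the cell type lists. Genes changed by 1 or less in absolute log2 were named as members of short counts, after their values were seen. Alternatives were unscaled TPM, quantile normalization, other pseudocounts and filters, 3 N mice of 1 genotype, only the groups compared, a replicate block, robust eBayes, voom, other thresholds, leaving out each mouse, and, chosen after seeing the data, log2(normalised reads + 1) for 17218 genes with at least 10 reads in 3 mice, and leaving out N mice 2 and 3. Lrrc7, Celsr2, Gnai3, Muc19 and Smgc of the lists were not analysed here, nor were the transgenes.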

Additional observations from a re-analysis of the deposited data

Results flagged for a closer look

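Pard6b in E mouse 3 was at 542 normalised reads, while the nearest of the other E mice was at 346, a gap of 0.86 of the range of the group. It was the 1 value far from the rest of its group among 36 sets of 5 or 6 mice looked at, for 9 genes and 3 paralog ratios in N, E and EY. The limit used is built so that chance gives about 1 in 20 in each set, so 1 such value among 36 sets is not rare. The 3 Y mice were not looked at in this way.

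Gpsm1, a spindle orientation gene, had an interaction of -2.19, so that its change in EY epithelia differed from the sum of those in E and Y. It was 1 of 59 further polarity genes tested for an interaction, and 0 of the 9 core genes had one by limma.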

How the results depend on the processing

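In all 19 fits without 1 mouse, Pard3, Scrib and Crb3 stayed called in EY, Crb3 in Y and Pard3 and Scrib in EY against E. The number of core genes called in EY was 3 (27.3% of all genes), with a range of 1 to 4. It was 1 with an absolute log2 fold change above 1 (15.4%). Pard3 missed that limit at -0.98, but was at -1.08 on the scale of reads and with voom. The number reached 4, among others, with unscaled TPM (31.9%), on the scale of reads (38.6%) and without N mice 2 and 3 (20.8%). Without 1 mouse it was 3 to 4 (24.3% to 27.6%). In Y it was 1, but 0 with only the groups compared (2.39% of all genes) and 2 with voom (7.21%), with the scale of reads (11%) or at an adjusted p below 0.05 (13.4%). In EY against Y it was 0, but 1 with voom (3.6%) and 1 with the scale of reads (6.07%). In EY against E it was 2, but 0 with an absolute log2 fold change above 1 (11.3%) and 3 at an adjusted p below 0.05 (32.7%). Pard3 was at -0.93 in EY against E, or at -1.02 on the scale of reads and with voom. In E and for the interaction the number of core genes called was 0 under all settings run. Unscaled TPM turned the EY values of Dlg1 (0.26), Llgl1 (0.28) and Pard6g (0.015) to above 0. Without 1 mouse, the EY value of Pard6b ranged from -0.048 to 0.19 (-0.045 without N mice 2 and 3) and the difference of the Llgl2 to Llgl1 ratio in E from -0.11 to 0.012. The cause was not tested, apart from the scaling itself.

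With mouse number as a replicate block, the calls in EY, Y, E, EY against Y, EY against E and for the interaction were 3, 1, 0, 0, 2 and 0, so no core call changed, while Fzd3 (-1.27, adjusted p = 0.0135), Ezr (0.44, adjusted p = 0.0139) and Esrp2 (-0.40, adjusted p = 0.0178) lost theirs. Of all genes, 25.5%, 4.81%, 1.24%, 1.93%, 20.9% and 0.114% were called in these comparisons with the block. Residuals of 24 pairs of mice with the same number had r of -0.042 to 0.076, 0 of them above 0.1, and 6 of 19 mice correlated best with a mouse of their number, so the numbers were not treated as pairs.

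Of all genes, 1426 changed in Y, but 851 with 3 N mice, 795 without N mice 2 and 3, 543 with only the groups compared and 708 to 889 without 1 Y mouse. In E 333 changed, but 155 with only the groups compared and 210 without N mice 2 and 3. In EY against Y 667 changed, but 141 with only the groups compared, 439 with the block, 1045 on the scale of reads, 218 to 344 without 1 Y mouse and 443 without EY mouse 2. For the interaction 42 did, but 129 with voom, 128 on the scale of reads, 69 after quantile normalization, 62 with 0.01 TPM added, 65 at a filter of 1 TPM, 26 with the block, 25 without Y mouse 3 and 75 without EY mouse 3. Of genes changed in EY 49.6% were higher, and 75.0% without scaling. In Y it was 62.2% and 84.3% without scaling or 72.6% with 3 N mice. In EY against Y it was 40.2% and 66.3% without scaling, or 54.6% with only the groups compared. In EY against E it was 49.5% and 71.6% without scaling. Crb1 and Crb2 had far fewer reads than the core genes, and whether more depth would bring them above the filter was not tested. The 3 Y mice limit what can be called in Y, where the count fell without any 1 of them.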

Other observations

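The TPM used here divide by the span of a gene with its introns, so a fixed filter and a fixed constant in TPM weigh most on long genes. Pard3b, a long paralog of Pard3, did not pass the filter of 0.1 TPM, although it had a mean of 28.9 recovered reads per mouse. Its normalised reads were 41.4 ± 19.9 in 5 N mice (SD), 50.1 ± 20.5 in 5 E mice, 22.8 ± 13.4 in 3 Y mice and 6.50 ± 3.04 in 6 EY mice. On log2(normalised reads + 1), a scale chosen after seeing the data, limma gave a log2 fold change of -2.48 in EY against N (adjusted p = 3.82e-05). Dlg2, a long paralog of Dlg1, was at 631 ± 75.2 (N), 478 ± 55.0 (E), 147 ± 12.4 (Y) and 51.0 ± 24.6 (EY) normalised reads. On this scale Dlg2 was also lower in EY than in Y (-1.62, adjusted p = 0.000221), which the TPM scale did not call (-0.34, adjusted p = 0.253).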
